A study of Fraxinus excelsior with 182 samples.

Results

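Among the 42665 genes measured in ash leaves, 110 were on in some trees and off in others with almost no tree in between. They were selected on their TPM values alone (a length-normalised transcript abundance scaled to a fixed sum in every tree): a gene was taken when at least 18 of the 182 trees were under 0.1 TPM (off), at least 18 trees were at 5 TPM or more (on), and at most 9 trees lay in between. Without the limit on trees in between, 1076 genes of the table had at least 18 trees in each state. The 110 genes made up 0.258% of all genes and 10.2% of those 1076. The number of trees in each state and the levels that chose the genes are therefore given as a description, with no test.

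The trees were 182 Danish accessions of European ash (Fraxinus excelsior), a deciduous forest tree threatened by the fungal disease ash dieback. Each accession gave 1 library of total RNA from leaves, labelled by its Ash number, and all formed a single group with no treatment, genotype class or age in the labels. The values are the authors' TPM estimates for the coding sequences of their long-read ash genome, which comes from another tree. Each gene is known only by its identifier, because the sources used here give no function, sequence or position for any of the 110.

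In an outcrossing tree such as ash, individuals differ in the sequence of their genes, in the number of copies and in whether a gene is present at all. A diploid tree carries 2 copies of most genes, and a reference genome usually keeps 1 version of each, although diverged versions can remain in it as separate entries. A gene listed at 0 in such a table may be silent, may be missing from that tree, or may be present in a version whose reads were assigned to another entry. These cases cannot be told apart from TPM. Fewer cells of a type and less RNA per cell cannot be told apart either.

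Fe_g9211 and Fe_g8404 divided the trees most evenly. Fe_g9211 was on in 89 trees, off in 89 and in between in 4. Its level in on trees had a lowest value of 7.15, a median of 21.9 and a highest value of 51.8 TPM, and all 89 off trees were listed at 0. Fe_g8404 was on in 90 trees, off in 88 and in between in 4, with 5.18, 14.7 and 34.7 TPM as the lowest, median and highest level in on trees. All its off trees were listed at 0 too. Fe_g4473 came next, with 83 trees on, 92 off and 7 in between, and a median of 24.3 TPM when on. The rule that chose the genes fixes this division into a group of trees near 0 and a separate group at 5 TPM or more, so these values describe the genes and are no check of them.

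Over the 110 genes, the share of trees on ran from 9.89% to 89.01% with a median of 55.8%, or 101.5 trees. There were 29 genes on in fewer than 60 trees, 34 genes on in 60 to 120 trees and 47 genes on in more than 120 trees. Fe_g31662.1 was on in the most trees, 89.01%, and off in 18, followed by Fe_g25480 (on in 87.9%, off in 21) and Fe_g4201 (on in 87.4%, off in 23). Fe_g27423 and Fe_g30793 were each on in 18 trees, and Fe_g11672 in 20.

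The off state was close to absolute. Of the 8940 off states, 8880 (99.3%) were listed at exactly 0, and in 93 of the 110 genes every off tree was at 0. The other 17 genes had a few off trees with traces below the limit. Only 459 states, or 2.29% of all, lay in between.

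For 9 genes no tree at all lay in between. Fe_g4201 was among them: its lowest on tree was at 16.1 TPM and all 23 off trees were at 0. Fe_g6549 was another, with 65.9% of trees on, 62 trees off and 5.96 TPM as the lowest on value. At the other end, 7 genes had the allowed 9 trees in between. In Fe_g2499 those trees spread from 0.157 to 4.89 TPM, and in Fe_g9978 from 1.17 to 4.99 TPM. Just outside the limit, Fe_g59 had 10 trees in between with 80.2% of trees on and 14.3% off, and Fe_g1797 had 10 with 27.5% on and 67.03% off. A further 92 genes had 10 to 18 trees in between, so the limit of 9 marks no gap.

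The level in on trees differed widely between genes. The median TPM in on trees ran from 6.26 to 116.5, and 75 of the 110 genes lay between 10 and 50 TPM, 27 above 50 and 8 under 10. Fe_g31464 was the highest: its on trees (78.6% of all) had a lowest value of 12.2, a median of 116.5 and a highest value of 299 TPM. Fe_g1097 had a median of 115.4 TPM in 74 on trees, and Fe_g31662.1 of 110.96 TPM in its on trees. Fe_g31464 was nevertheless listed at 0 in 35 trees.

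The lowest medians belonged to Fe_g39341.2 (6.26 TPM in 25 trees), Fe_g20901.2 (7.89 TPM in 63.2% of trees) and Fe_g37621 (8.50 TPM in 20 trees). Genes on in 91 trees or more had a median level of 26.1 TPM, against 22.3 TPM for the 50 genes on in fewer.

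**Figure D1:**
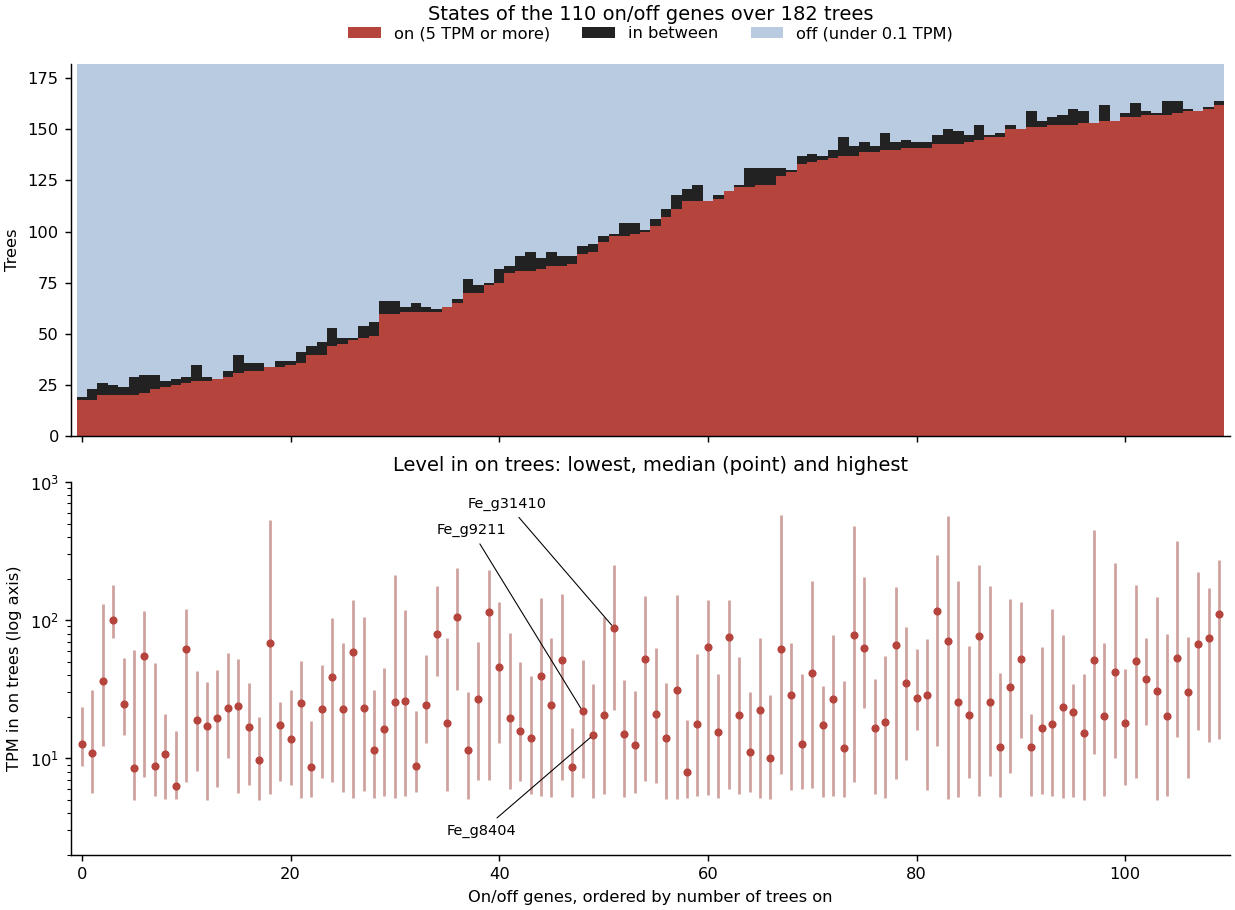
Upper panel: number of trees (y axis) in which each of the 110 genes was on, in between or off, with genes ordered along the x axis by trees on. Lower panel: TPM in on trees on a log axis, with the median as a point and the lowest to highest value as a line. Trees in between form a thin band of at most 9, and the medians, from 6.26 to 116.5 TPM, spread over much the same range along the order.

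Within the on trees of a gene, the coefficient of variation of TPM (SD as a percent of the mean) ran from 21.6% to 110.9% with a median of 46.3%. Fe_g30790 was the most even. Its 20 on trees had a lowest value of 73.8, a median of 99.6 and a highest value of 178.3 TPM, while 86.3% of trees were at 0 and 5 trees in between. Fe_g5563 was the most uneven, with 7.67 to 576 TPM in on trees (69.8% of all) and a median of 61.9 TPM. Fe_g31410 lay near the middle: 98 trees were on at 22.3 to 253 TPM with a median of 87.996, 83 were at 0 and 1 lay in between.

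The states differed from tree to tree in nearly every combination. Between 43 and 74 of the 110 genes were on in a tree, with a median of 58, and no 2 of the 182 trees had the same set of states. Any 2 trees shared the state of 47.1% to 84.9% of the genes both had called, with a median of 65.05%. The most alike were Ash67 and Ash177 and the least alike Ash15 and Ash184. No pair of the 16471 passed 90%, so no library looked like a second copy of another.

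Ash61 stood apart with 13 genes in between, against 8 in the next tree and a median of 2. Results below were also computed without it and their counts stayed within 1.5 times, with 2 more genes meeting the rule. The trees had 31244 to 34889 genes above 0 TPM, and the 10 highest genes of a tree took 4.25% to 19.99% of its TPM. The number of reads behind a TPM value is unknown, so no counting interval can be given.

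The states of most gene pairs had a phi coefficient near 0. This coefficient is 1 when 2 genes are on and off in the same trees and -1 when they are on in opposite trees. A value of 1 needs equal shares of trees on, and -1 needs shares that add up to all trees. Other pairs have a narrower possible range, which was not corrected for. Fe_g2839 with Fe_g25480, for example, had no tree off for both and still a phi of -0.33. Over the 5995 pairs of the 110 genes, 98.8% had a phi between -0.2 and 0.2 and the median was 0.0028. The coefficients are given as a description, since all pairs share the same 182 libraries. Only 2 pairs (0.0334%) reached 0.5 and 2 pairs (0.0334%) fell to -0.5 or below, and these 4 were among the 10 most extreme pairs that follow.

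**Figure D2:**
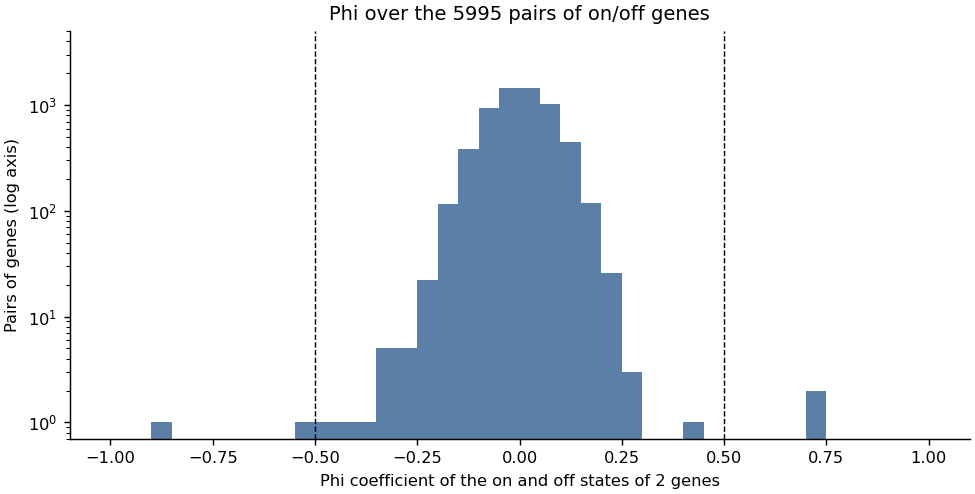
Number of gene pairs (y axis, log scale) by phi coefficient of their on and off states (x axis), over 5995 pairs. Dashed lines mark -0.5 and 0.5. Nearly all pairs lie within 0.2 of zero, with 2 pairs above 0.5 and 2 below -0.5.

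Both pairs with linked states had nearly adjacent identifiers. Fe_g26438 and Fe_g26440 reached a phi of 0.75: 38 trees had both on, 20 had only Fe_g26438, none had only Fe_g26440, and 66.7% of the trees had neither. The product of the shares of trees would have put 25.3 trees in the empty class. Fe_g30790 and Fe_g30793 reached 0.73, with 14 trees on for both, 5 and 4 on for a single gene, and 86.6% of trees on for neither. The next pairs were far weaker. Fe_g31318 and Fe_g45775 had a phi of 0.43, Fe_g8547.2 and Fe_g18335 of 0.27, and Fe_g17439 and Fe_g31410 of 0.26.

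Adjacent identifiers did not always share their states. Of the 9 pairs within 10 identifiers of each other, the other 7 had a phi between -0.16 and 0.21. The highest of these was Fe_g26443 with Fe_g26445, where the shares of trees on differ widely and limit phi. There 21 trees were on for both, 94 for Fe_g26443 alone and 2 for Fe_g26445 alone. Both genes had the same lowest on value, 5.36 TPM, and the same highest value in between, 4.38 TPM. Whether their reads were measured apart was not tested. Fe_g31410 and Fe_g31411, direct neighbours, were at 0.05, with 13 trees on for both, 83 on for Fe_g31410 alone and 8 for Fe_g31411 alone.

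The pairs with opposite states had distant identifiers. Fe_g7750 and Fe_g20440 had the lowest phi, -0.89: 81.3% of the trees had only Fe_g7750 on, 28 trees had only Fe_g20440, 6 had both and none had neither. Fe_g6549 and Fe_g36979 followed with -0.55, with 67 and 62 trees on for a single gene, 53 for both and none for neither. Fe_g27832 and Fe_g37469 were at -0.50 on rounding, just short of the limit, with 15 trees on for neither. Fe_g2248 with Fe_g21370 (-0.44) and Fe_g4201 with Fe_g31410 (-0.35) completed the lowest 5.

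In 4 of these 5 pairs no tree had both genes off. The product of the shares put at least 10 trees in the class with both genes off for 4804 pairs, and in 5 of those the class was empty. With at least 5 trees, a limit chosen after seeing the data, 5531 pairs qualified and 10 were empty. For comparison, no pair with at least 10 such trees lacked trees on for both, and in 1 pair, Fe_g26438 with Fe_g26440 above, a class with a single gene on was empty. The 10 pairs held 20 different genes, so every gene had only 1 partner in them.

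The 10 pairs were then compared by level. In 16 of the 20 genes the median TPM in trees with both genes on was 40% to 60% of the median in trees with that gene alone, and the median over the 20 was 50.5%. Fe_g6354 showed this most plainly. In the 52 trees with Fe_g6354 alone it was at 38.9, 50.1 and 61.7 TPM (lowest, median and highest), and in the 88 trees with both on at 16.1, 24.4 and 44.3 TPM. All but 1 of the 88 trees lay below the lowest tree of the other group. The log2 difference was -0.99 ± 0.035 (SE), with an adjusted p of 1.39e-54.

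Its partner Fe_g41536 was at 30.8, 54.8 and 68.1 TPM in 38 trees alone and at 5.84, 26.8 and 42.9 TPM in the 88 trees with both. The log2 difference was -1.01 ± 0.054 (adjusted p = 3.09e-33). The added TPM of both genes had a lowest value of 30.8, a median of 51.2 and a highest value of 68.1 TPM over the 182 trees, a coefficient of variation of 10.99%. That no sum was near 0 follows from the choice of the pairs.

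These differences came from limma on log2(TPM + 1), fitted within the trees that had the gene on and compared by the state of its partner. The partner itself was left out, so each fit tested 31090 genes. Benjamini-Hochberg adjustment was over the 621800 tests of the 20 fits. The pairs were chosen on their states and not on their levels. In all, 15 of the 20 genes were lower where the partner was on. They were also the only genes called lower in these fits, in which 0.00241% of tests were so called. Another 5 tests were called higher.

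Fe_g20491 was at 25.1, 49.5 and 74.6 TPM in 76 trees alone and at 17.5, 25.3 and 40.3 TPM in 78 trees with Fe_g3368 on, a log2 difference of -0.94 ± 0.040 (adjusted p = 8.57e-48). Fe_g3368 itself went from a median of 39.2 to 18.7 TPM (-1.09 ± 0.13, adjusted p = 9.12e-09). Fe_g38775.1 had a median of 29.4 TPM in 64 trees alone and 13.2 TPM in 90 trees with Fe_g5867.1 (-1.11 ± 0.056, adjusted p = 7.00e-39). Groups overlapped in each of these genes.

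In Fe_g2248 the 23 trees alone were at 10.04, 15.1 and 16.7 TPM and the 53 trees with Fe_g21370 at 5.23, 7.54 and 10.6 TPM, and 50 of the 53 lay below all of the former. The log2 difference was -0.87 ± 0.058 (adjusted p = 7.86e-20). Fe_g1891 and Fe_g24864 had nearly the same medians as each other: 22.7 and 20.6 TPM alone, and 10.9 and 9.77 TPM in the 88 trees with both. Fe_g2839 and Fe_g25480 did so at a higher level, with 90.9 and 98.4 TPM alone and 47.2 and 52.8 TPM in 78 trees with both. The called log2 differences of the 15 genes ran from -1.85 to -0.69.

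The largest of them belonged to a pair whose 2 genes did not move alike. Fe_g36979 was at 34.98, 79.9 and 140.5 TPM in 62 trees alone and at 5.39, 20.9 and 76.03 TPM in 53 trees with Fe_g6549 (-1.85 ± 0.13, adjusted p = 1.23e-21). Fe_g6549 had medians of 83.9 TPM alone and 67.8 TPM with Fe_g36979 on (-0.43 ± 0.11), which did not pass (adjusted p = 0.85).

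The other genes that did not pass were Fe_g31410 (157.4 TPM alone, 81.6 TPM with Fe_g4201, adjusted p = 0.88), Fe_g5563 (85.6 and 40.8 TPM, adjusted p = 0.065), and both genes of the most opposite pair. Only 6 trees had both Fe_g7750 and Fe_g20440 on. There Fe_g20440 had a median of 21.1 TPM, against 83.6 TPM in 28 trees alone (-2.23 ± 0.51, adjusted p = 0.85), and Fe_g7750 of 39.6 against 42.4 TPM (-0.11 ± 0.36, adjusted p = 0.99). All 20 fitted differences were below 0.

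The coefficient of variation of the added TPM of a pair had a median of 26.2% over the 10 pairs and ran from 10.99% to 95.1%, the latter in Fe_g7750 with Fe_g20440. It is given as a description, because the spread of the single genes is set by the rule and the pairs were chosen for having no tree off for both. Salmon, the program behind the TPM, divides reads among similar sequences. Whether the genes of a pair are similar in sequence was not tested.

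**Figure D3:**
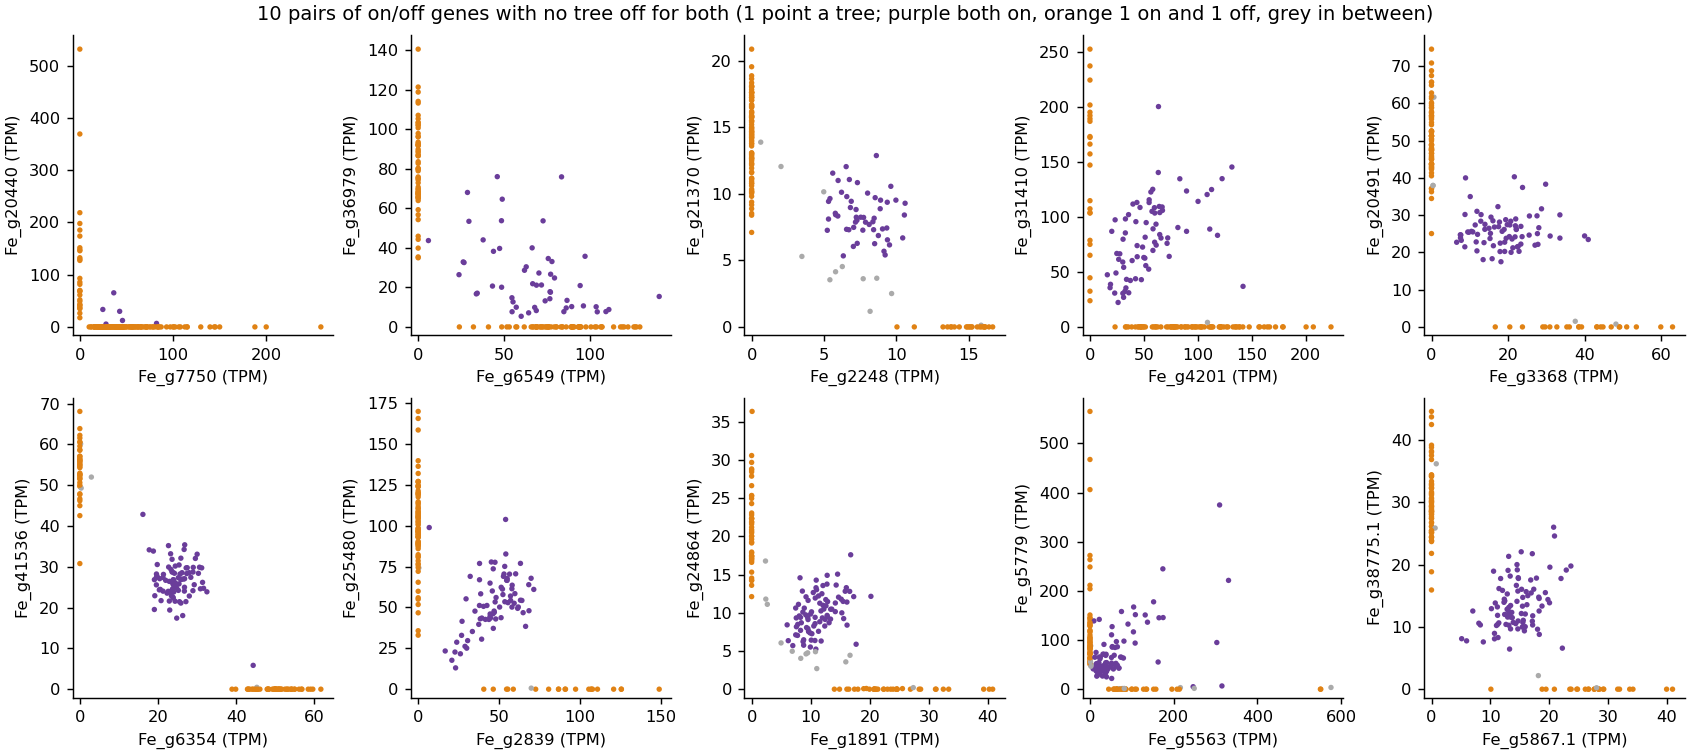
TPM of both genes of the 10 pairs, with 1 point per tree (x axis the first gene, y axis the second, both in TPM on linear axes). Trees with both on (purple) lie at roughly 50% of the level of trees with a single gene on (orange, along the axes) in most pairs, such as Fe_g6354 with Fe_g41536, and no tree sits at the origin.

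Other genes were then compared between the on and off trees of each of the 110 genes, again with limma on log2(TPM + 1). In all, 31091 genes reached 1 TPM in at least 18 trees. The on/off gene itself was not tested, so each fit had 31090 tests, and the state of the gene was the only term. Adjusted over the 3419900 tests of all fits together, 18702 tests (0.547%) were called higher in on trees and 11429 (0.334%) lower at an adjusted p of 0.05. This was not evenly spread: Fe_g31318 and Fe_g45775 alone made 92.2% of the calls.

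Fe_g31318 was on in 84.6% of trees, with 5.31, 20.3 and 67.95 TPM as the lowest, median and highest level, and off in 20. Adjusted within its own fit, 67.9% of all genes differed between those trees. Fe_g45775 was on in 84.1% of trees at 10.8, 51.2 and 448 TPM and off in 29, and 57.7% of genes differed. The states of both came with a difference between libraries: the 10 highest genes took a median of 9.71% of TPM where Fe_g31318 was off and 5.70% where it was on, and 7.33% against 5.77% for Fe_g45775. The part of this difference in the calls was not tested. Other on/off genes also had a difference in this share, in either direction. Examples are Fe_g8974, at 6.79% where off and 5.91% where on, and Fe_g40671, at 5.19% and 6.11%. The most extreme genes with Fe_g31318 were Fe_g32015, with a median of 27.7 TPM in on trees and 13.2 TPM in off trees, and Fe_g756, with 0.033 and 2.66 TPM.

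The tests of the other genes were adjusted without these 2, a choice made after seeing the data. Of 3357720 tests, 56 (0.00167%) were then higher in on trees and 0.00301% were lower. These calls came from 82 of the on/off genes, of which 35 had a higher call and 69 a lower one. In 23 of the lower calls the lower gene was itself an on/off gene. Most of these 23 were the partner in a pair with no tree off for both. The choice of those pairs fixes the direction of such a call. For some on/off genes, such as Fe_g1891 and Fe_g7750, the partner was the only call. Of the 56 higher genes, 32 (57.1%) were within 5 identifiers of the on/off gene and the other 24 (42.9%) were more than 200 identifiers away. Of the lower genes, 97 (96.04%) were more than 200 identifiers away.

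Adjusted within each fit, the same fits gave 0.0876% of tests higher and 0.0429% lower. The increase came mostly from Fe_g19434, with 1509 higher and 1176 lower, and from Fe_g8348, with 1340 higher and 12 lower. The 10 highest genes took a median of 6.57% of TPM where Fe_g19434 was off and 5.69% where it was on. For Fe_g8348 the shares were 6.22% and 6.07%. Their part in these calls was not tested. The median fit had 1 call and 27 of the 110 fits had none.

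The labelled examples, Fe_g9211 and Fe_g8404, had few genes that passed within the fit. With Fe_g9211, 0 of 31090 genes (0%) passed within the fit, 1543 (4.96%) had an unadjusted p under 0.05, and a rank-sum test called 0. Adjusted over all fits together, 13 were higher and 3 lower, a threshold that the many calls of Fe_g31318 and Fe_g45775 make less strict. The most extreme genes were Fe_g37173, with a median of 15.6 TPM in on trees and 12.3 TPM in off trees (within-fit adjusted p = 0.23), Fe_g42509 (7.43 and 6.91 TPM, p = 0.34), Fe_g11793 (14.1 and 12.9 TPM, p = 0.39), Fe_g19006 (1.64 and 2.24 TPM, p = 0.39), Fe_g8856 (0 and 0 TPM, p = 0.53) and Fe_g40076.2 (10.1 and 10.98 TPM, p = 0.70).

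With Fe_g8404, 2 genes (0.00643%) passed and the rank-sum test called 3, but 6059 (19.5%) had an unadjusted p under 0.05. Adjusted over all fits together, 49 were higher and 27 lower. The 10 highest genes took a median of 6.28% of TPM in its on trees and 5.61% in its off trees. The part of this difference in the p-values was not tested. Fe_g45117.2 was lower in on trees: 6.15, 25.4 and 53.5 TPM in 90 on trees against 9.31, 38.7 and 56.4 TPM in 88 off trees (log2 difference -0.53 ± 0.086, within-fit adjusted p = 0.00014). Fe_g16107.1 was higher, at a median of 9.11 against 8.04 TPM (0.16 ± 0.032, adjusted p = 0.016). With 5 principal components in the fit its difference was 0.105 and in trees with low Ash numbers 0.13, and neither passed. Both groups overlapped widely in these genes. Fe_g33644 (6.14 and 4.45 TPM), Fe_g13669 (1.69 and 0.899 TPM), Fe_g43825.2 (10.4 and 12.2 TPM) and Fe_g7290 (11.8 and 17.8 TPM) came next, with within-fit adjusted p of 0.064 to 0.097.

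Neighbouring identifiers were called far more often than the average gene. Identifiers number the predicted genes, and a close number is not by itself a position. With Fe_g31318 and Fe_g45775 left out, 20 genes (14.4% of those tested) at a distance of 1 identifier were higher in on trees and 1 (0.719%) was lower. At distances of 2, 3, 4 and 5 the shares higher were 2.99%, 2.86%, 2.21% and 0.709%. From 6 to 10 identifiers 0 of 691 tests passed in limma (44 had an unadjusted p under 0.05) and from 11 to 50 identifiers 0 of 5853 (366 under 0.05), while adjustment within each fit called 1 test higher at 6 to 10 identifiers, and 2 higher and 5 lower at 11 to 50. Over 200 identifiers the shares were 0.000721% higher and 0.00291% lower.

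With all 110 genes and their tests adjusted together, 49 of 705 neighbours within 5 identifiers (6.95%) were higher and 8 (1.13%) lower, beside the 0.547% and 0.334% over all genes. The 49 and the 8 belonged to 38 on/off genes, and 45 and 8 of them were not on/off genes themselves.

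**Figure D4:**
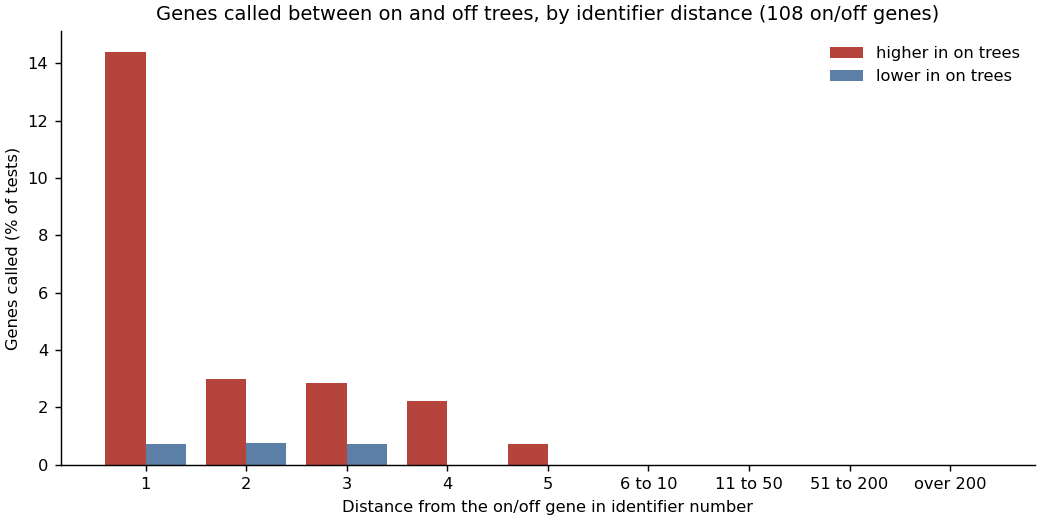
Percent of tests called higher (red) or lower (blue) in on trees (y axis) by distance in identifier number from the on/off gene (x axis), for the on/off genes other than Fe_g31318 and Fe_g45775 adjusted together. The share called higher drops from 14.4% at a distance of 1 to 0.709% at 5.

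The strongest neighbour was Fe_g33103.2, next to Fe_g33104. In the trees with Fe_g33104 on (83.5% of all) it was at 0.782, 9.10 and 33.5 TPM, and in the 25 off trees at 0, 0 and 0.436 TPM. The groups did not overlap, which held for no other called neighbour. The log2 difference was 3.35 ± 0.15 (within-fit adjusted p = 6.47e-50).

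Fe_g20903, near Fe_g20901.2, was at 0, 2.10 and 4.66 TPM in on trees (63.2% of all) and at 0, 0 and 0.294 TPM in 61 off trees (1.57 ± 0.071, adjusted p = 1.80e-48). Fe_g20905 and Fe_g20906 in the same run were higher too, with medians of 0.968 and 1.54 TPM in on trees and 0 and 0.308 TPM in off trees. Fe_g32943.2, next to Fe_g32942, was listed at 0 in all 78 off trees and at 0, 3.93 and 15.2 TPM in 98 on trees (2.23 ± 0.12, adjusted p = 1.14e-38). It was thus above 0 in on trees alone, though not in all of them.

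Fe_g8897, next to Fe_g8896, was at 1.23, 2.49 and 4.49 TPM in 28 on trees and at 0, 0 and 3.73 TPM in the others, all off (1.61 ± 0.091, adjusted p = 4.81e-37). Fe_g8898 beside it had medians of 1.79 and 0 TPM. Fe_g26439.1 lies between the linked genes Fe_g26438 and Fe_g26440, and was at 0.782, 14.2 and 25.4 TPM in the 61 trees with Fe_g26438 on and at 0, 0.994 and 4.13 TPM in the off trees (64.3%) (2.46 ± 0.14, adjusted p = 2.79e-36). The 3 consecutive identifiers therefore went together. The on/off genes Fe_g26443 and Fe_g26445, a few numbers on, had a phi between -0.16 and -0.014 with Fe_g26438 and Fe_g26440.

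Neighbours that were lower in on trees were few. Fe_g32587, near Fe_g32590, was at 0, 14.04 and 28.9 TPM in 35 on trees and at 2.68, 27.98 and 48.7 TPM in the off trees (79.7%) (-1.22 ± 0.14, adjusted p = 2.11e-11). Fe_g39378, near Fe_g39380, was at 0, 52.2 and 440 TPM in 60 on trees and at 24.6, 111.5 and 2892 TPM in the off trees (63.7%) (-1.81 ± 0.25, adjusted p = 4.07e-07). Between these, Fe_g39379 was called higher, so the neighbours of Fe_g39380 went in both directions.

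Fe_g45778 with Fe_g45775 (13.6 and 18.1 TPM), Fe_g3367.1 with Fe_g3368 (243 and 273 TPM) and Fe_g27099 with Fe_g27098 (3.31 and 5.23 TPM) were the other 3 named by the same rule, with within-fit adjusted p of 4.17e-07, 0.034 and 0.044. Fe_g45778 comes from a fit that called 57.7% of all genes, and its log2 difference went from -0.35 to -0.12 and no longer passed with 5 principal components. Fe_g27099 did not pass when the fits other than those of Fe_g31318 and Fe_g45775 were adjusted together (adjusted p = 0.058). In each, on and off trees overlapped.

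Genes with distant identifiers were called in both directions. Over 200 identifiers away, 24 tests were higher and 97 lower with the fits other than Fe_g31318 and Fe_g45775 adjusted together, but adjusted within each fit 0.0868% were higher and 0.0427% lower. The 3 strongest of the 24 were Fe_g2796 with Fe_g27171, Fe_g37710 with Fe_g5322 and Fe_g9205 with Fe_g2248, chosen after their values were seen.

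Fe_g2796 was at 0, 2.28 and 12.9 TPM in the trees with Fe_g27171 on (60.99%) and at 0, 0 and 1.71 TPM in 64 off trees (1.63 ± 0.10, within-fit adjusted p = 1.52e-31). Fe_g37710 was at 1.137, 19.1 and 117.7 TPM in the on trees of Fe_g5322 (86.8%) and at 0.371, 1.75 and 10.3 TPM in 18 off trees (2.63 ± 0.18, adjusted p = 8.27e-29). Fe_g9205 was at 0, 1.37 and 8.22 TPM in the 84 on trees of Fe_g2248 and at 0, 0 and 0.637 TPM in 94 off trees (1.36 ± 0.095, adjusted p = 7.61e-27). On and off trees overlapped in all 3.

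For 68 of the on/off genes other than Fe_g31318 and Fe_g45775, the most strongly lower gene passed within the fit and was over 50 identifiers away. In 23 of these it was another on/off gene, and in 20 of them the partner in the 10 pairs above. The direction of these 20 is fixed by the choice of the pairs, in which every tree with 1 gene off had the other above the off limit. In the other 45 it was no on/off gene. Its median in on trees was 40% to 60% of that in off trees for 30 of the 45, under 40% for 9 and over 60% for 6. The median was 46.6%. These genes are the lowest of each fit, so the percentages are a description.

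Among these 45, Fe_g8454.1 with Fe_g39341.2 had the largest statistic. It was at 5.26, 10.6 and 20.1 TPM in the off trees (84.6%) and at 0, 4.91 and 6.93 TPM in 25 on trees (-1.52 ± 0.11, within-fit adjusted p = 4.13e-27). Fe_g22666 with Fe_g1097 was at 160.6, 251 and 424 TPM in the off trees (58.8%) and at 38.05, 139.7 and 285 TPM in 74 on trees (-1.08 ± 0.076, adjusted p = 5.77e-27). On and off trees overlapped in both genes.

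Fe_g9659 with Fe_g26440 had medians of 12.7 TPM in off trees and 5.32 TPM in on trees, and Fe_g7773 with Fe_g38161 of 15.8 and 7.19 TPM. Fe_g27310 with Fe_g8896 had 55.9 and 28.2 TPM, and Fe_g15777 with Fe_g39311 had 39.7 and 20.4 TPM. In Fe_g6044 with Fe_g392 the difference was larger: the 45 off trees were at 12.9, 23.1 and 34.9 TPM and the on trees (74.2%) at 0, 0 and 25.6 TPM (-3.28 ± 0.26). Fe_g38730 with Fe_g28748 had 34.8 TPM in off trees and 15.1 TPM in on trees. These 8 genes were chosen after their values were seen, as the lowest by statistic among the 45.

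**Figure D5:**
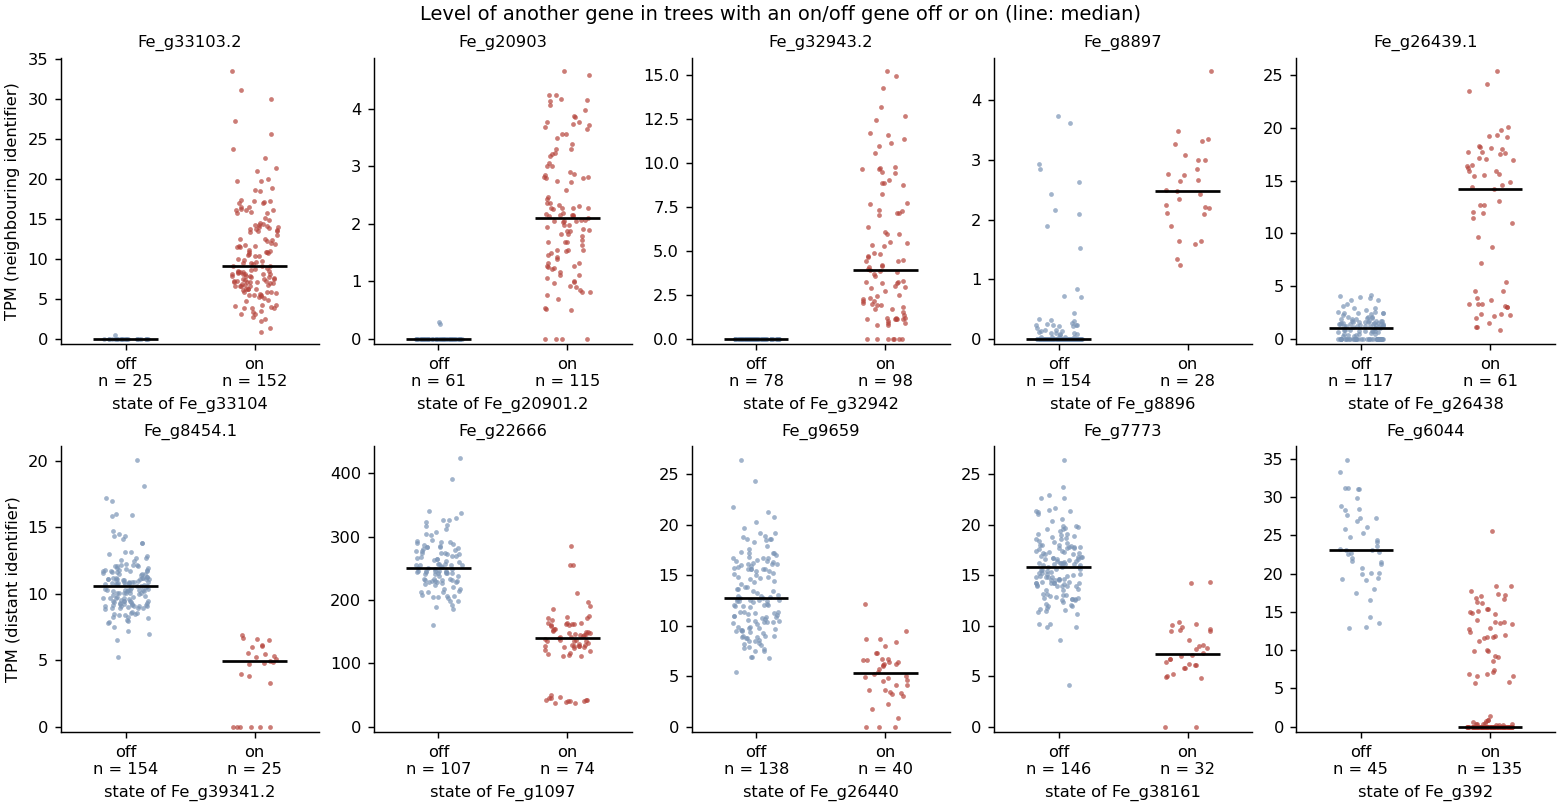
TPM of another gene (y axis, linear) in the trees in which an on/off gene was off or on (x axis), with 1 point per tree and the median as a line. Upper row: neighbouring identifiers, near 0 in most off trees and raised in on trees. Lower row: distant identifiers, whose median in on trees was about 50% of that in off trees or less.

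Some distant lower genes also came in runs of identifiers. Within 5 identifiers of the lower gene of the 68 fits, 414 further tests were made. Adjusted within the fit, 22 (5.31%) were lower and 3 (0.725%) higher in on trees. The shares over all tests of the fits other than Fe_g31318 and Fe_g45775 were 0.0429% and 0.0876%. Some genes were counted more than once, such as Fe_g9658 with Fe_g26438 and with Fe_g26440. Others, such as Fe_g36975, lay beside a lower gene that is itself an on/off gene and were also counted among its neighbours. The 22 belonged to 15 on/off genes and the 25 to 16. Fe_g8896 had Fe_g27311 beside Fe_g27310, with 3.02 TPM in on trees and 6.09 TPM in off trees, while its own neighbours Fe_g8897 and Fe_g8898 were higher. The run of Fe_g20901.2 went in both directions: beside Fe_g23604.2, Fe_g23601 was lower (1.10 TPM in on trees and 3.30 TPM in off trees), as were Fe_g23602 and Fe_g23603, while Fe_g23599 (4.74 and 2.999 TPM) and Fe_g23605.2 (38.1 and 31.1 TPM) were higher.

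Fe_g26440 had Fe_g9658 beside Fe_g9659 (12.9 and 24.7 TPM). With the linked genes Fe_g30790 and Fe_g30793, a run around Fe_g32185 was lower: Fe_g32185 itself had medians of 74.9 TPM in the on trees and 138.3 TPM in the off trees of Fe_g30793, and Fe_g32189 of 13.1 and 25.2 TPM. Fe_g31411 and Fe_g4202 are direct neighbours of Fe_g31410 and Fe_g4201, a pair with no tree off for both. Fe_g4202, which is no on/off gene, was lower where Fe_g31411 was on. Its medians were 36.1 TPM in on trees and 81.4 TPM in off trees (log2 difference -1.43).

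Genes that the study annotated and related to damage were read in the same fits. They had been picked by the study on these trees. With the on/off genes other than Fe_g31318 and Fe_g45775, 0 of 1188 tests of the 11 MADS-box transcription factor genes passed within the fits, 62 had an unadjusted p under 0.05 and the rank-sum test called 0. The 3 OVATE family genes, which encode transcriptional repressors, gave 0 of 324, with 13 under 0.05 and 0 by rank sum. The 4 NF-YA and TOPLESS genes (transcription factor subunits and corepressors) gave 1 of 432 and the 5 kinase genes 1 of 540. Over all tests of these fits, 0.0876% were higher and 0.0429% lower. Both calls were higher where Fe_g8348 was on: Fe_g12567.1 at medians of 6.61 and 5.38 TPM, and Fe_g33197.2 at 20.1 and 17.3 TPM. They were among 1340 genes called higher in that fit, so they are not particular to the lists.

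With Fe_g31318 and Fe_g45775, whose fits called 67.9% and 57.7% of all genes, 4 of 22 MADS-box tests were higher and none lower, all 6 OVATE tests were higher and 5 of 8 NF-YA and TOPLESS tests were lower. None of the 10 kinase tests passed, none had an unadjusted p under 0.05, and 1 passed by rank sum. The OVATE gene Fe_g34397 was at a median of 4.58 TPM in the on trees and 0.300 TPM in the off trees of Fe_g31318. Fe_g18379, a MADS-box gene with a wide spread over trees, was on in 97, off in 57 and in between in 28, so it was not among the 110.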

How the data were processed

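The authors trimmed public 100 bp leaf reads with Trimmomatic, quantified them with Salmon 0.8 on the coding sequences of their genome and imported them with tximport; the deposited values are TPM, scaled to the same sum in each of the 182 trees. Depth is unknown and positions are not given in the sources used here.

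The 110 genes, the lists and the rule for naming genes were chosen with earlier results of these data known. Named genes were those with the most even, highest and lowest numbers of trees on, the highest and lowest levels, the extreme pairs by phi, the neighbours within 5 identifiers with the smallest p, and the extreme genes with Fe_g9211 and Fe_g8404. Trees were taken as independent. The study assessed the population structure of this panel, but no such term was in the fits, and relatedness between trees was not tested.

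Levels were compared with limma 3.58.1 in R 4.3.3 (trend) on log2(TPM + 1), for genes at 1 TPM in 18 trees or more, so folds of low genes are understated. Trees in between were left out of the fit of that gene. Simulated shifts of 0.25, 0.5 and 1 log2 units were recovered for 50%, 92% and 98% of genes in the Fe_g9211 fit of 31090 genes. In the Fe_g27423 fit, which has 18 on trees, the shares were 16%, 54% and 94%. Of the unshifted genes, 0.013% and 0.065% were called in these fits. Shifted genes came from those with higher mean levels, and values were shuffled gene by gene. Recovery of low genes and differences shared by a whole library were therefore not covered. Alternatives are given in the closing section.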

Additional observations from a re-analysis of the deposited data

How the results depend on the processing

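The 110 genes became 289 with on at 2 TPM, 49 with on at 10 TPM, 202 with at most 18 trees in between, 9 with none, and 60 with 36 trees in each state. With exact zeros as off, off under 0.5 TPM, median-of-ratios scaling or without Ash61, the number stayed within 1.5 times. At a phi of 0.8, 0 linked and 1 opposite pair were left, and trees with high Ash numbers gave 4 opposite pairs. Pairs with no tree off for both rose from 5 to 10 with a limit of 5 trees.

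Genes called over all fits depended most on Fe_g31318 and Fe_g45775. Of all tests, 0.547% were higher and 0.334% lower, against 0.00167% and 0.00301% without these fits, 0.00395% and 0.00363% with 5 principal components, 0.196% and 0.131% in trees with high Ash numbers, and 0.505% lower when adjusted within each fit. At a distance of 1 identifier, 26 neighbours were higher and 3 lower with all fits adjusted together, and 20 and 1 without these fits. Of the neighbours within 5 identifiers, 32 were higher and 3 lower without these fits, and 3 were lower in trees with high Ash numbers. With 5 principal components 37 of the neighbours were still higher and 8 lower.

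Of 300 values of named genes under the alternatives, 268 kept their direction and side of the threshold, 32 kept the direction but did not pass, and 0 reversed. The threshold was adjusted over all fits together, or over the 20 fits of the pairs with no tree off for both. Genes named with Fe_g9211 failed within its fit but could still count as kept. Dropping the filter on low values cannot change a difference, nor can leaving out Ash61 where that tree lay in between. Of the genes in the pairs with no tree off for both, 15 were lower where the partner was on under every alternative tried for them (pseudocount 0.1, scaling, without Ash61). No paired analysis was possible because the labels give 1 group. TPM keeps no depth, so low levels cannot be weighed by their reads, and sequence similarity between genes was not tested.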
